A study of Caenorhabditis elegans with 35 samples.

Results

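Y48G8AL.12 and Y48G8AL.16 are neighbouring protein-coding genes of Caenorhabditis elegans whose reads were counted together as 1 locus, so that every value given for them is a joint value of 2 genes. The locus is 1 of 37555 in the count table, 1 of 8710 with a fragment in any library, and 1 of 1101 that reached 5 scaled counts (size-factor-scaled fragments) in 5 or more libraries and entered the tests. It was selected on its own values, because it was high in wild type, low in eak-7;akt-1 and partly back in the set-4 mutants. Its levels and differences over the genotypes are therefore described here with no test, and the tests below concern other loci.

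RNA-seq was carried out on whole larvae of the L2 or L2d stage, the stage at which the choice between reproductive growth and dauer is made. Triple mutants carried daf-12 (labelled EA12), daf-16 (EA16), dpy-21 (EA21), set-4(dp268) (dpEA) or set-4(n4600) (nEA) on top of eak-7;akt-1, and they were set beside wild type (WT) and the eak-7;akt-1 double mutant (EA). Each triple mutant is called here by its added mutation. All strains except wild type thus lack normal eak-7 and akt-1 function, whole-animal mutations were used throughout, and dp268 is a point mutation whereas n4600 is a deletion. Each of the 35 libraries, 5 for each of 7 genotypes, came from pooled larvae laid by more than 200 adults over 6 h at 20°C and kept for 24 h at 25°C, a temperature that favours dauer arrest. The study calls the libraries of a genotype biological replicates, but the labels do not say how their cultures were separated, and every SD or p-value here measures only the spread between these libraries.

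Dauer is an alternative, long-lived larval stage that C. elegans enters when conditions are poor. Insulin-like signalling through the kinase AKT-1, with EAK-7 acting in parallel, holds back the FoxO transcription factor DAF-16, and loss of both lets DAF-16 drive dauer arrest at high temperature together with the nuclear hormone receptor DAF-12. DPY-21 is a histone H4 lysine 20 demethylase of the dosage compensation complex, which lowers expression from both X chromosomes of hermaphrodites, and SET-4 is the methyltransferase that makes the di- and trimethylated forms of the same lysine. The question asked of each triple mutant was whether loss of one of these factors returned a transcript towards its wild type level in animals that still lacked eak-7 and akt-1.

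In the WBcel235 annotation, Y48G8AL.12 (WBGene00021690) lies on chromosome I at 1218427 to 1219002, and is read from the reverse strand, with 2 exons of 118 and 230 nt around an intron of 228 nt. Its transcript of 348 nt holds a coding sequence of 234 nt, or 78 codons. Y48G8AL.16 (WBGene00195068) lies at 1214964 to 1217345 of the same chromosome, also on the reverse strand, and 1081 bases separate it from Y48G8AL.12. It has 2 annotated transcripts. The transcript of 269 nt holds a coding sequence of 56 codons that begins in its first exon and spans an intron of 2048 nt, and the transcript of 386 nt holds one of 35 codons that likewise begins in the first exon and spans an intron of 1985 nt. The first coding exon is 92 nt long in all 3 transcripts of the locus. Neither gene carries a name beyond its sequence identifier, and no role is given for either here.

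Both genes lie wholly inside intron 3 of herc-1 (WBGene00021685, chromosome I, 1211485 to 1254719), a gene of the opposite strand named for the HECT and RCC1-like domain family of ubiquitin ligases. This intron spans 1213980 to 1221046, or 7067 bases, in the 2 herc-1 transcripts of 18 exons, and the other 4 herc-1 transcripts do not reach it. The counting was not stated to use strand, so unspliced herc-1 reads could not be told apart from reads of the locus, nor could reads of the 2 member genes from each other.

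**Figure D1:**
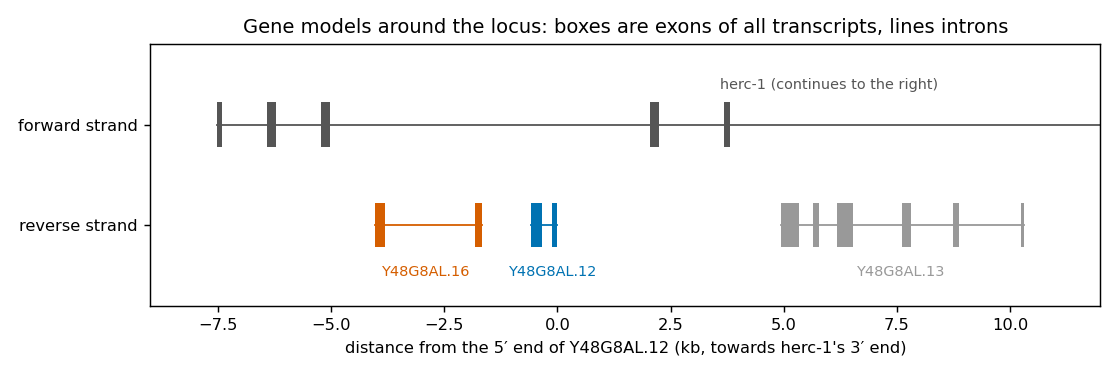
Gene models around the locus on the forward (upper) and reverse (lower) strand, drawn against the distance in kb from the 5′ end of Y48G8AL.12, where boxes are exons of all annotated transcripts and lines are the genes' extent. Y48G8AL.12 and Y48G8AL.16 sit side by side within 1 long intron of herc-1, and Y48G8AL.13 lies further along on their own strand.

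The deposited values amounted to between 34193 and 88068 fragments in a library (median 56780), and 1 fragment was worth between 0.669 and 1.43 scaled counts. Whether these are the full counts of the libraries was not settled, and the depth behind each value is given as deposited. The loci of the mutated genes had too few fragments to check the genotypes. On the first principal component of all tested loci other than the member, which took 40.4% of the variance, 26 libraries lay apart from the other 9. The smaller group held replicate 7 of the daf-12 triple mutant, replicate 10 of the daf-16 triple mutant, replicates 6 and 9 of the dpy-21 triple mutant, replicate 7 of the set-4(n4600) triple mutant, replicates 7 and 10 of wild type and replicates 6 and 10 of eak-7;akt-1. What separates the 9 libraries is not given by the labels, and the main levels, differences and list calls below are given with and without them.

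The locus was nearly silent in eak-7;akt-1 and high in wild type, in the daf-12 triple mutant and in the daf-16 triple mutant. It was intermediate in the dpy-21 triple mutant and only a little above eak-7;akt-1 in both set-4 mutants. Values below are scaled counts for replicates 6, 7, 8, 9 and 10 in that order. What the number of a replicate stands for is not given by the labels. Because whole larvae were sampled, fewer expressing cells and less RNA per cell cannot be told apart.

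The libraries of the daf-12 triple mutant had 190, 188, 136, 183 and 210 scaled counts, those of the daf-16 triple mutant had 67.4, 77.4, 82, 153 and 96, and those of wild type had 144, 116, 139, 128 and 129. The wild type libraries lay close together, whereas replicate 9 of the daf-16 triple mutant reached the level of the daf-12 triple mutant and the other 4 lay below every wild type library. The dpy-21 triple mutant libraries had 39.6, 25.1, 14.7, 13.5 and 26.1 scaled counts. All 5 lay far below wild type and above every eak-7;akt-1 library.

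The set-4(dp268) triple mutant libraries had 12.2, 23, 5.41, 15 and 4.22 scaled counts, and those of the set-4(n4600) triple mutant had 5.28, 2.55, 7.68, 26.2 and 11.7. The eak-7;akt-1 libraries had 0, 2.16, 4.64, 2.85 and 2.96. In each set-4 mutant 4 of 5 libraries lay above all eak-7;akt-1 libraries and 1 lay among them. The highest set-4 library, replicate 9 of the set-4(n4600) triple mutant, was above 4 of the 5 dpy-21 triple mutant libraries.

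**Figure D2:**
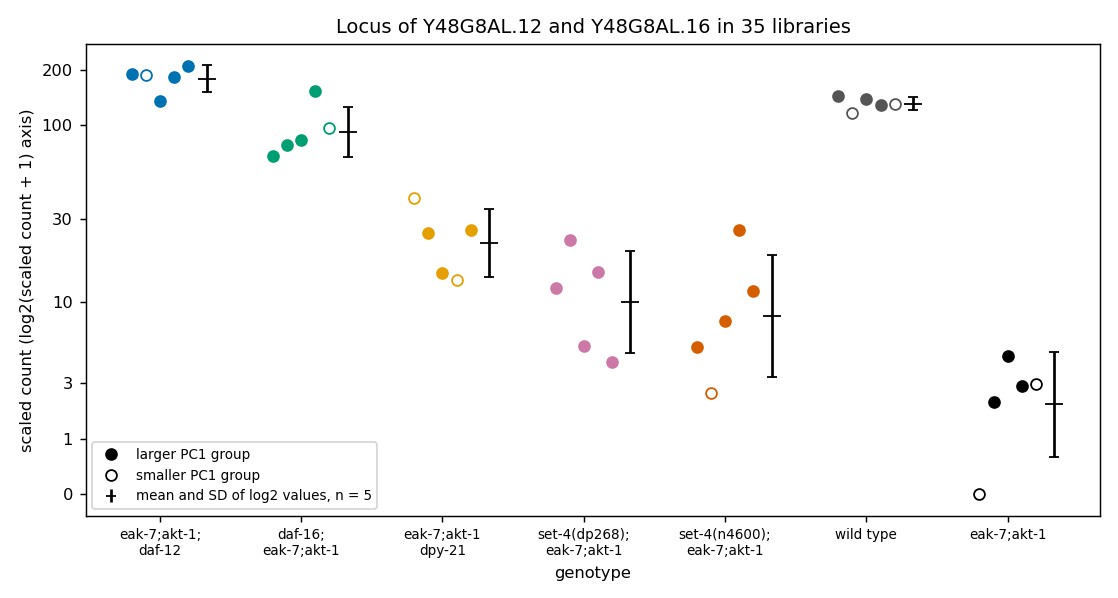
Scaled counts of the locus in each of the 35 libraries on a log2(scaled count + 1) axis, by genotype, with the mean and SD of the log2 values beside each set of 5. Filled points are libraries of the larger group on the first principal component and open points those of the smaller one. Wild type, the daf-12 triple mutant and the daf-16 triple mutant sit above 60 scaled counts, eak-7;akt-1 sits below 5, and the other 3 genotypes lie between, except that 1 library of each set-4 mutant (4.22 scaled counts in dp268 and 2.55 in n4600) lies within the eak-7;akt-1 range.

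These levels rested on few fragments at the low end. The 5 libraries together held 994 fragments of the locus in the daf-12 triple mutant, 496 in the daf-16 triple mutant, 133 in the dpy-21 triple mutant, 52 in the set-4(dp268) triple mutant, 55 in the set-4(n4600) triple mutant and 644 in wild type, against 12 in eak-7;akt-1. The exact Poisson 95% interval was 38.8 to 68.2 fragments for the set-4(dp268) triple mutant and 41.4 to 71.6 for the set-4(n4600) triple mutant, against 6.2 to 21 for eak-7;akt-1. Fragments carried no molecular identifiers, and such intervals cover counting error only, not the spread between libraries. Replicate 6 of eak-7;akt-1 had 0 of 34838 fragments, which allows a share of up to 0.00861% (3 fragments).

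As genotype means the locus had 181 ± 27.5 scaled counts in the daf-12 triple mutant, 95.1 ± 33.8 in the daf-16 triple mutant, 23.8 ± 10.6 in the dpy-21 triple mutant, 12 ± 7.64 in the set-4(dp268) triple mutant, 10.7 ± 9.32 in the set-4(n4600) triple mutant and 131 ± 10.7 in wild type, against 2.52 ± 1.68 in eak-7;akt-1 (SD, n = 5 each). From high to low the order was the daf-12 triple mutant, wild type, the daf-16 triple mutant, the dpy-21 triple mutant, the set-4(dp268) triple mutant, the set-4(n4600) triple mutant and eak-7;akt-1. Only 1 step between neighbours in this order separated all libraries, that between the daf-16 triple mutant and the dpy-21 triple mutant. The ranges of the neighbours overlapped at each of the other 5 steps.

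Without the 9 libraries of the smaller principal component group the means were 179 scaled counts in the daf-12 triple mutant (n = 4), 94.9 in the daf-16 triple mutant (n = 4), 22 in the dpy-21 triple mutant (n = 3), 12 in the set-4(dp268) triple mutant (n = 5), 12.7 in the set-4(n4600) triple mutant (n = 4), 137 in wild type (n = 3) and 3.22 in eak-7;akt-1 (n = 3). The set-4 mutants changed places, and the rest of the order stood. Within the smaller group itself the daf-12 triple mutant had 188 scaled counts in its only library, the daf-16 triple mutant 96 and the set-4(n4600) triple mutant 2.55. The pairs of libraries in it had 39.6 and 13.5 in the dpy-21 triple mutant, 116 and 129 in wild type, and 0 and 2.96 in eak-7;akt-1.

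The spread within genotypes was uneven. Across the 5 wild type libraries the coefficient of variation was 8.19%, against the 8.88% that counting error alone would give. In eak-7;akt-1 it was 66.5%, against 64.8% from counting error. The spread was 3.5 times counting error in the daf-16 triple mutant and between 2.06 and 2.86 times in the other 4 genotypes. The SD around the genotype means was 0.72 on the log2 scale for the locus, against a median of 0.66 over the 1101 tested loci, and 51 of the 76 loci with a mean within 1.5-fold of that of the locus had a smaller SD.

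Relative to eak-7;akt-1, the difference of mean log2(scaled count + 1) was 5.88 ± 0.44 (SE, n = 5 libraries in each group) in the daf-12 triple mutant, 4.91 ± 0.47 in the daf-16 triple mutant, 2.91 ± 0.51 in the dpy-21 triple mutant, 1.86 ± 0.59 in the set-4(dp268) triple mutant, 1.59 ± 0.65 in the set-4(n4600) triple mutant and 5.42 ± 0.43 in wild type. The ratios of mean scaled counts were 71.7, 37.7, 9.43, 4.74, 4.23 and 52 in the same order of genotypes. Leaving out replicate 9 of the set-4(n4600) triple mutant alone brought its ratio to 2.69, and leaving out any other single library of a set-4 mutant or of eak-7;akt-1 gave ratios between 3.39 and 6. Within the larger principal component group the log2 differences were 5.44, 4.47, 2.45, 1.44, 1.51 and 5.07.

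Among the 1101 tested loci ranked by this log2 difference, the locus stood at rank 1 in the daf-12 triple mutant, 2 in the daf-16 triple mutant, 7 in the dpy-21 triple mutant, 42 in the set-4(dp268) triple mutant, 9 in the set-4(n4600) triple mutant and 2 in wild type. The median log2 difference of all tested loci lay between -0.20 and 0.06 in these comparisons. The 6 comparisons share the same 5 eak-7;akt-1 libraries, so their values at the locus are not independent of each other.

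All 5 libraries lay above every eak-7;akt-1 library in the daf-12 triple mutant, as at 4.27% of the 1100 other tested loci, in the daf-16 triple mutant, as at 3.36%, in the dpy-21 triple mutant, as at 2.82%, and in wild type, as at 4.36%. In the set-4 mutants the locus overlapped with eak-7;akt-1, and 1.27% of tested loci were above it without overlap in the set-4(dp268) triple mutant and 0.182% in the set-4(n4600) triple mutant. Among libraries of the larger principal component group, the 4 set-4(n4600) triple mutant libraries no longer overlapped with the 3 of eak-7;akt-1. The gap was narrow, with a lowest value of 5.28 scaled counts against a highest of 4.64. No share over the tested loci was computed for it. The shares above are given as background. Nothing is read from them or from this gap, because the same contrasts chose the locus.

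Set against wild type, the log2 difference was -2.51 ± 0.28 in the dpy-21 triple mutant, -3.57 ± 0.41 in the set-4(dp268) triple mutant and -3.84 ± 0.50 in the set-4(n4600) triple mutant (SE, n = 5 libraries in each group). Every library of these 3 mutants lay below every wild type library, as was the case for 4.91%, 4.82% and 4.36% of the other tested loci in the same order of mutants. The difference from wild type was 0.45 ± 0.12 in the daf-12 triple mutant and -0.52 ± 0.21 in the daf-16 triple mutant, and both ranges overlapped with that of wild type. In the daf-12 triple mutant, 4 of 5 libraries were above all wild type libraries, and in the daf-16 triple mutant 4 of 5 were below all of them. Within the larger principal component group the differences from wild type were 0.37 in the daf-12 triple mutant, -0.60 in the daf-16 triple mutant, -2.62 in the dpy-21 triple mutant, -3.63 in the set-4(dp268) triple mutant and -3.56 in the set-4(n4600) triple mutant.

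Loss of daf-16 and loss of dpy-21 left the locus at separate levels. The log2 difference of the daf-16 triple mutant over the dpy-21 triple mutant was 2.0 ± 0.34, with no overlap, which 3.18% of the other tested loci also showed in this direction, and 2.03 ± 0.36 without the smaller principal component group. The 2 set-4 alleles differed by 0.27 ± 0.64 (dp268 over n4600), with set-4(dp268) higher in 2 of 5 pairs of libraries with the same number, and by -0.07 ± 0.61 without the smaller principal component group. Over the set-4 mutants, the dpy-21 triple mutant was higher by 1.05 ± 0.49 than the set-4(dp268) triple mutant and by 1.32 ± 0.56 than the set-4(n4600) triple mutant, and both pairs of ranges overlapped. Without the smaller principal component group these differences were 1.01 ± 0.48 and 0.93 ± 0.52.

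On a scale that sets the mean of eak-7;akt-1 to 0% and the mean of wild type to 100%, taken on log2 values, the daf-16 triple mutant had regained 90.5 ± 8.31% of the wild type difference and the dpy-21 triple mutant 53.7 ± 11.3% (SD over 5 libraries). Regained shares were 34.2 ± 17% in the set-4(dp268) triple mutant, with libraries between 14.1% and 54.7%, and 29.3 ± 20.3% in the set-4(n4600) triple mutant, with libraries between 3.9% and 58.1%. In the daf-12 triple mutant the share was 108 ± 4.36%, so that each of its libraries reached the wild type mean or passed it. Without the smaller principal component group the shares were 107% in the daf-12 triple mutant, 88.2% in the daf-16 triple mutant, 48.3% in the dpy-21 triple mutant, 28.4% in the set-4(dp268) triple mutant and 29.9% in the set-4(n4600) triple mutant.

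The size of the partial return depended on the scale. Taken on scaled counts without a logarithm, the shares were 139% in the daf-12 triple mutant, 72% in the daf-16 triple mutant, 16.6% in the dpy-21 triple mutant, 7.34% in the set-4(dp268) triple mutant and 6.34% in the set-4(n4600) triple mutant. The order of genotypes was the same on both scales.

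**Figure D3:**
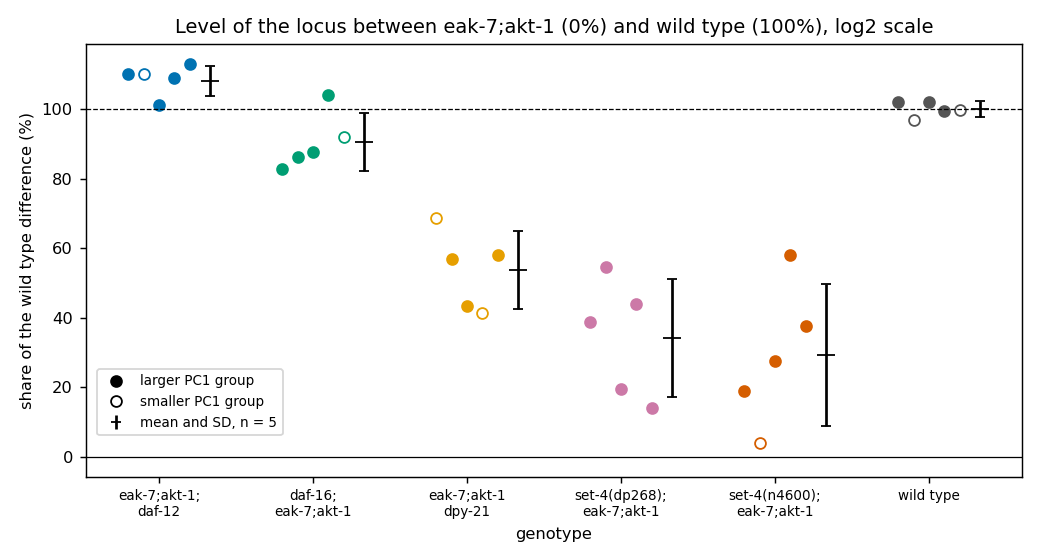
Share of the difference between wild type (100%, dashed line) and eak-7;akt-1 (0%, solid line) in each library, on the log2 scale, by genotype, with the mean and SD of 5 libraries. Open points are libraries of the smaller principal component group. The daf-12 triple mutant libraries all lie above the wild type mean, and those of the dpy-21 triple mutant between 41.3% and 68.7%. The set-4 libraries are spread between 3.9% and 58.1%.

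None of the loci near the member that could be tested was called. Of 22 neighbouring loci, taken from the same clone or from the 10 rows on either side in the table, 8 had no fragment in any library and 2 passed the filter. Limma called 0 of these 2 in every genotype set against eak-7;akt-1, with 0 at an unadjusted p below 0.05, 0 by edgeR and 0 by DESeq2. Over the 1100 tested loci other than the member limma called 9.91% in the daf-12 triple mutant, 10.4% in the daf-16 triple mutant, 12.2% in the dpy-21 triple mutant, 0.455% in the set-4(dp268) triple mutant, 0.182% in the set-4(n4600) triple mutant and 12.9% in wild type. With 2 loci tested, a count of 0 is also what these shares would give.

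The better measured of the pair was the locus of rpl-17, which encodes a protein of the large ribosomal subunit and shares the locus with Y48G8AL.7 and Y48G8AL.17. This locus had 76.8 ± 15.5 scaled counts in the daf-12 triple mutant, and 81.4 ± 10.7 in wild type, against 74.4 ± 12.8 in eak-7;akt-1 (SD, n = 5), and its log2 difference from eak-7;akt-1 was between -0.06 and 0.13 over the 6 comparisons, with an SE of 0.18. The smallest adjusted p-value from limma was 0.756. The other was the locus of vps-4, which encodes an ATPase of membrane sorting, and Y34D9A.8. It had log2 differences from eak-7;akt-1 between -0.53 in the dpy-21 triple mutant and 1.22 in the set-4(dp268) triple mutant, with an SE of 0.86 and a smallest adjusted p-value from limma of 0.68.

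The host gene itself was barely counted. The herc-1 locus, which also holds Y48G8AL.5 and Y48G8AL.15, had 12 fragments over the 5 daf-12 triple mutant libraries, 6 in the daf-16 triple mutant, 4 in the dpy-21 triple mutant, 7 in the set-4(dp268) triple mutant, 8 in the set-4(n4600) triple mutant, 5 in wild type, and 7 in those of eak-7;akt-1. These fragments are too few to compare genotypes. The next gene on the members' strand, Y48G8AL.13, had 6 fragments over the wild type libraries, against 3 over those of eak-7;akt-1. The other neighbours above 0 in at least 5 libraries were the loci of mrpl-38 and spd-1, of aps-3, and of K12C11.1, Y92H12BR.2, Y92H12BR.4 and F37F2.2, with between 17 and 45 fragments each over all 35 libraries, again too few for a comparison.

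Genes of dauer and insulin-like signalling, of dosage compensation and known DAF-16 outputs were looked up as a list of 44. All 44 had a locus, 15 had no fragment in any library, 23 were above 0 without passing the filter, with at most 9 fragments in a library, and 6 were tested. With all libraries limma called 0 of the 6 in the daf-12 triple mutant, beside 9.91% of the other tested loci, 1 in the daf-16 triple mutant, beside 10.4%, 1 in the dpy-21 triple mutant, beside 12.2%, and 1 in wild type, beside 12.9%, each versus eak-7;akt-1. It called 0 in the set-4(dp268) triple mutant, beside 0.455%, and 0 in the set-4(n4600) triple mutant, beside 0.182%. Counts of 0 or 1 among 6 lie near these shares and are no result about the list. In the daf-12 triple mutant and the set-4(n4600) triple mutant none of the 6 had an unadjusted p below 0.05, in the set-4(dp268) triple mutant 3 had, and edgeR and DESeq2 also called 0 in these 3 mutants. Within the larger principal component group the counts were 1 of 6 in the daf-12 triple mutant, beside 7.82% of the other tested loci, 4 in the daf-16 triple mutant, beside 10.5%, 4 in the dpy-21 triple mutant, beside 9.55%, 0 in the set-4(dp268) triple mutant, beside 0.273%, 0 in the set-4(n4600) triple mutant, beside 0.0909%, and 4 in wild type, beside 10.3%. These counts rest on 3 to 5 libraries of a genotype, and the 6 loci were themselves among those from which the principal component was computed.

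The insulin-like peptide gene ins-7 rose in the daf-16 triple mutant, by 2.16 ± 0.71 on the log2 scale (adjusted p = 0.0436 by limma). It was higher in 4 of 5 same-numbered pairs. The call was lost without any one of replicates 6, 7, 8 or 9, with a pseudocount of 0.5 and with no filter. It was kept by edgeR (adjusted p = 0.0234) and by DESeq2 (adjusted p = 0.011), and a filter of 10 scaled counts left ins-7 untested. With all libraries limma did not call ins-7 in the dpy-21 triple mutant (1.95 ± 0.71, adjusted p = 0.066). There ins-7 was called by edgeR (adjusted p = 0.021), by DESeq2 (adjusted p = 0.0129), with a pseudocount of 5 and without replicate 9. In the larger principal component group it was called in the daf-16 triple mutant (2.61 ± 0.60, adjusted p = 0.0041 by limma), the dpy-21 triple mutant (2.44 ± 0.64, adjusted p = 0.0109) and wild type (2.01 ± 0.64, adjusted p = 0.042). The locus of set-1, the methyltransferase that makes monomethylated H4 lysine 20, also holds mel-32, let-721, C05D11.13 and T26A5.6. It fell by 1.21 on the log2 scale in the dpy-21 triple mutant (SE 0.33, adjusted p = 0.0106 by limma) and by 1.18 in wild type (SE 0.33, adjusted p = 0.0117), higher in 0 of 5 pairs each time. The call in the dpy-21 triple mutant was lost without replicate 8 or 9, by edgeR, by DESeq2, with no filter and in the larger principal component group (-1.25 ± 0.42, adjusted p = 0.0569 by limma). The call in wild type was lost without replicate 9 or 10, by DESeq2, with no filter and in the larger principal component group (-0.88 ± 0.42, adjusted p = 0.227 by limma). A filter of 10 scaled counts left this locus untested. The share of that locus that comes from set-1 was not measured.

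With all libraries limma called none of the remaining 4 tested genes in any comparison, whereas each was called in the larger principal component group. The metallothionein gene mtl-1 had a log2 difference of 3.06 ± 1.36 in the set-4(dp268) triple mutant (adjusted p = 0.647 by limma), and its relative mtl-2 one of -0.54 ± 0.17 in the dpy-21 triple mutant, which passed the adjusted p (0.0362 by limma) and missed the 1.5-fold threshold. The insulin-like peptide genes daf-28 and ins-35 had log2 differences of -2.26 ± 1.15 and -2.56 ± 1.61 in wild type (adjusted p = 0.221 and 0.35 by limma).

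In the larger principal component group mtl-1 fell in the daf-16 triple mutant (-3.85 ± 0.37, adjusted p = 4.61e-08 by limma), in the dpy-21 triple mutant (-2.76 ± 0.40) and in wild type (-3.22 ± 0.40), and ins-35 fell in these 3 genotypes and in the daf-12 triple mutant (-1.06 ± 0.25, adjusted p = 0.0047). There daf-28 fell in wild type (-2.63 ± 0.32, adjusted p = 1.28e-06 by limma) and in the daf-16 triple mutant (adjusted p = 0.0302), and mtl-2 in the dpy-21 triple mutant (-0.68 ± 0.22, adjusted p = 0.0495). With all libraries mtl-1 was also called in the daf-16 triple mutant by edgeR and DESeq2, and daf-28 in wild type by DESeq2, and limma called mtl-2 in the dpy-21 triple mutant without replicate 6 or 7.

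Tissue markers were thinly counted. Of 28 marker genes 2 passed the filter and 8 had no fragment in any library. The 5 markers of hypodermis and cuticle, 2 of them at 0 throughout, summed to 2.81 to 7.02 scaled counts in the daf-12 triple mutant, 1.4 to 8.99 in the daf-16 triple mutant, 0.669 to 1.73 in the dpy-21 triple mutant, 0 to 1.22 in the set-4(dp268) triple mutant, 0 to 1.75 in the set-4(n4600) triple mutant, and 0.835 to 10.5 in wild type, against 0 to 1.9 in eak-7;akt-1. Outside eak-7;akt-1 most of this sum was rol-6, a cuticle collagen gene with at most 10 fragments in a library. Its mean was 4.98 in wild type, 4.05 in the daf-12 triple mutant and 3.53 in the daf-16 triple mutant. It was 1.11 in the dpy-21 triple mutant, and 0.474 and 0.35 in the dp268 and n4600 set-4 mutants. In eak-7;akt-1 rol-6 was at 0, and the sum was dpy-7, whose mean was highest there (0.381). No sum of a set-4 mutant passed the highest sum of eak-7;akt-1.

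The 5 intestinal markers, again with 2 at 0 throughout and carried by the protease gene asp-1, summed to 15.3 to 28.8 scaled counts in the daf-12 triple mutant, 24.4 to 39.6 in the daf-16 triple mutant, 21.6 to 30.6 in the dpy-21 triple mutant, 34.6 to 56.6 in the set-4(dp268) triple mutant, 34.1 to 49.8 in the set-4(n4600) triple mutant, and 19.2 to 42.6 in wild type, against 33.6 to 39 in eak-7;akt-1. The sums of the daf-12 and dpy-21 triple mutants lay below those of eak-7;akt-1. Those of wild type, the daf-16 triple mutant and both set-4 mutants overlapped with them. The sums thus ran neither steadily with the locus nor steadily against it. How many tested loci lay below eak-7;akt-1 without overlap was not counted, so no result about the intestine is read from these sums. Marker sums of muscle, neurons and germline were at most 4.26 scaled counts in every library, and 3 dauer cuticle genes summed to 0 in all genotypes except the set-4(dp268) triple mutant (at most 1.06) and eak-7;akt-1 (at most 3.81). The part of tissue make-up or stage in the level of the locus was not tested.

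Likeness of pattern was measured by Pearson's r of log2(scaled count + 1) over the 35 libraries, as a description, since the points share genotypes, size factors and depth. Of the 1100 other tested loci 20 reached an r of 0.8 and the median was -0.07. The 8 loci most like the member were dpy-5 (r = 0.95), C02E7.6 (0.93), R12E2.15 (0.92), R12E2.14 (0.90), F41F3.3 (0.89), the ent-3 locus shared with K02E11.8 and K02E11.10 (0.89), the dpy-4 locus (0.89) and the locus of H23N18.5 and H23N18.6 (0.88). On ranks, by Spearman's rho, 6 of these 8 were again among the 8 most like, and so were 6 of 8 within the larger principal component group. Of the 8 like loci, dpy-4 encodes a cuticle collagen and ent-3 a nucleoside transporter. What the others encode, dpy-5 among them, is not given here. On chromosome I lie 3 of the 8 loci.

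At the other end stood the locus of the glycolytic enzyme genes gpd-2 and gpd-3 with mai-1 and spc-1 (r = -0.82), F45D11.14 (-0.80), the aspartate aminotransferase gene got-1.2 (-0.78) and the locus of egas-1, egas-2 and Y69H2.14 (-0.77). These ran opposite to the member. F45D11.14 had a mean of 24.5 ± 3.33 scaled counts in the set-4(dp268) triple mutant, 15.8 ± 2.78 in the set-4(n4600) triple mutant and 0.929 ± 1.35 in wild type, against 19.7 ± 6.79 in eak-7;akt-1 (SD, n = 5).

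The most similar locus, dpy-5, was lower throughout but followed the same order except for the set-4 mutants. It had 70.9 ± 18.3 scaled counts in the daf-12 triple mutant, 48.1 ± 19.6 in the daf-16 triple mutant, 18 ± 8.92 in the dpy-21 triple mutant, 2.31 ± 1.46 in the set-4(dp268) triple mutant, 6.65 ± 7.16 in the set-4(n4600) triple mutant and 50.2 ± 6.86 in wild type, against 1.27 ± 0.915 in eak-7;akt-1 (SD, n = 5). At dpy-5 set-4(n4600) was the higher of the set-4 mutants and at the member set-4(dp268) was, at the member by less than the SD of either mutant, and at dpy-5 by less than the SD of set-4(n4600) but more than that of set-4(dp268).

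In the dpy-21 triple mutant the 8 like loci had regained between 43.4% and 76.3% of their own wild type difference on the log2 scale (median 57.3%), and the member with 53.7% fell in the middle. In the set-4(dp268) triple mutant the like loci had regained between -2.45% and 38.6% (median 14.4%), against 34.2% at the member, and 1 of the 8, the dpy-4 locus, was above it. In the set-4(n4600) triple mutant they had regained between -7.62% and 32.3% (median 23.1%), against 29.3%, and 1 of the 8, dpy-5, was above it. Some of these shares rest on values at the floor. The dpy-4 and ent-3 loci, 2 of the 8, had 0 in every eak-7;akt-1 library. The dpy-4 locus had a mean of 1.38 scaled counts in the set-4(dp268) triple mutant. F41F3.3 had a mean of 0.175 in the set-4(n4600) triple mutant, against 0.448 in eak-7;akt-1. The place of the member among its like loci in the set-4 mutants is therefore not read from these shares. Its partial return there was also part of what chose it, and no test is given.

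**Figure D4:**
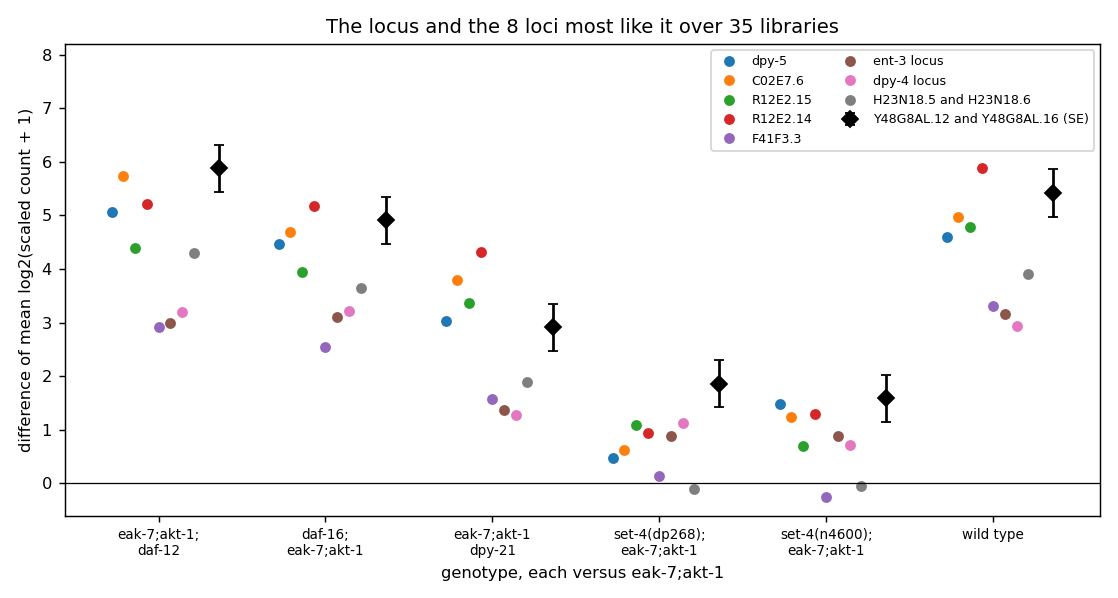
Difference of mean log2(scaled count + 1) from eak-7;akt-1 in each other genotype for the member (diamonds, with the SE from limma) and for the 8 loci most like it over the 35 libraries (circles). The member stands at 5.88 in the daf-12 triple mutant and 5.42 in wild type, and at 1.86 and 1.59 in the dp268 and n4600 set-4 mutants, above all 8 like loci in both set-4 mutants. The dpy-4, ent-3 and F41F3.3 loci were near the floor in eak-7;akt-1 and the set-4 mutants.

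The rule used the genotypes, and the deviation of each library from its genotype's mean is a measure it did not use. Over these deviations the correlation of the member with other tested loci had a median of 0.01, and 11 loci reached 0.5. The closest was again dpy-5, with r = 0.75 over 35 libraries, followed by R12E2.15 with 0.61, while the ent-3 locus, at 0.33, stood at rank 93. R05D7.7 (0.60) and the locus of djr-1.1, misc-1 and mrpl-41 (0.60), named here after their values were seen, came next although their r over all libraries was only 0.17 and 0.28. These within-genotype values include the libraries of the smaller principal component group and are not given without them.

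The libraries behind this can be read from dpy-5. In the set-4(n4600) triple mutant dpy-5 had 3.17, 1.7, 3.84, 19.2 and 5.3 scaled counts in replicates 6 to 10, so that replicate 9, the library in which the member was highest, was the highest here too, and replicate 7 was the lowest at both loci. In the daf-16 triple mutant dpy-5 had 23.9, 42.4, 49.6, 78.2 and 46.7, and its highest and lowest libraries, replicates 9 and 6, were again those of the member. In the dpy-21 triple mutant it had 30.8, 7.79, 11.5, 19.6 and 20.1, and replicate 6 was the highest at both, while the lowest was replicate 7 at dpy-5 and replicate 9 at the member. In eak-7;akt-1 dpy-5 was at 0 in replicate 6, as was the member, and at most at 2.32 in the others.

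The other genotypes did not match in this way. Replicate 7 of wild type was the lowest library at the member and the highest at dpy-5, with 58.5 scaled counts. In the daf-12 triple mutant dpy-5 had 83.5, 46.9, 57.5, 90.8 and 75.7, so that replicates 9 and 7 were its highest and lowest, against replicates 10 and 8 at the member. In the set-4(dp268) triple mutant it had 3.66, 2.3, 0, 3.46 and 2.11, with replicates 6 and 8 at the ends, against replicates 7 and 10 at the member.

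**Figure D5:**
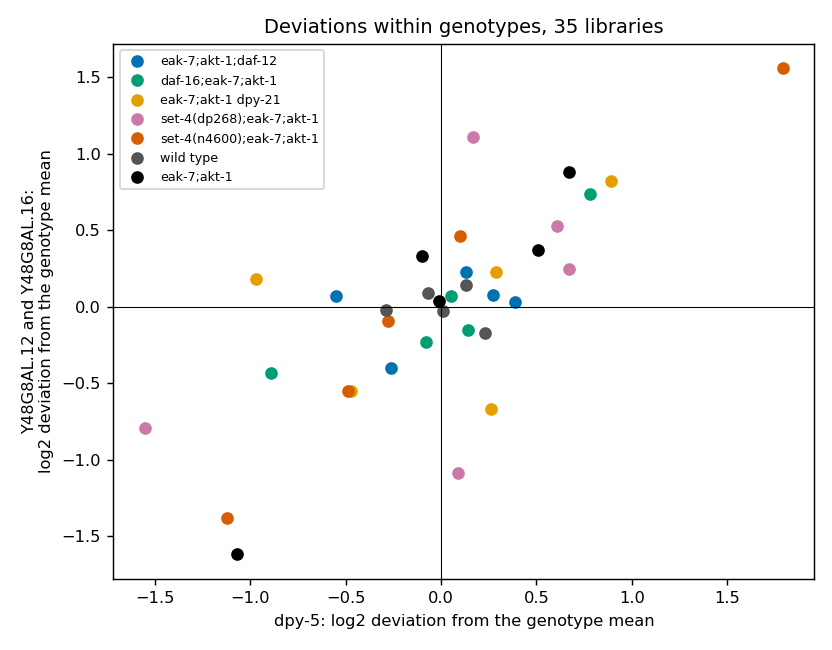
Deviation of each of the 35 libraries from its genotype's mean, in log2 units, for the member (vertical axis) against dpy-5 (horizontal axis), coloured by genotype. The point at the upper right is replicate 9 of the set-4(n4600) triple mutant, where both loci were highest for that genotype, and the wild type points cluster near 0 on both axes.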

How the data were processed

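The values the authors deposited are a signal per locus, namely CuffDiff fragments scaled by the size factor of each library (called scaled counts here). The submitters' processing notes name FastQC, cutadapt, TopHat2 2.0.9, Bowtie2 2.1.0, Cufflinks, Cuffdiff 2.1.1 and build WBcel235. Division by the smallest step of a library gave back fragments, and in every library 100.00% of values above 0, to 2 decimals, were whole to within 0.1 of a fragment.

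Loci other than the member were compared by limma 3.58.1 (R 4.3.3, trend) on log2(scaled count + 1). The fit held all 35 libraries and the 1101 loci that reached 5 scaled counts in 5 or more of them. A call needed 1.5-fold and a Benjamini-Hochberg adjusted p under 0.05. Alternatives were edgeR 4.0.16 and DESeq2 1.42.0, both run on these fragments, other pseudocounts, filters, scalings, libraries left out, the larger principal component group alone and a replicate block. Python 3.11.15, pandas 2.3.3 and matplotlib 3.10.9 made the rest.

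Named were the member, neighbours tested or above 0 in at least 5 libraries (at most 10), the 8 most and 4 least like loci and the tested list genes. The member, lists and tests were chosen with earlier results of these data known. Gene positions came from the WBcel235 annotation, matched by name. The authors' comparisons were not used.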

Additional observations from a re-analysis of the deposited data

How the results depend on the processing

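No alternative turned the direction of a difference from eak-7;akt-1 at the locus. The difference of set-4(dp268) over set-4(n4600) was -0.07 in the larger principal component group, against 0.27 with all libraries. Of 138 differences from eak-7;akt-1 under alternatives, 130 moved by less than the SD between libraries. The other 8 were the log2 differences with a pseudocount of 5, at 4.65 in the daf-12 triple mutant, 3.71 in the daf-16 triple mutant, 1.89 in the dpy-21 triple mutant and 4.21 in wild type, and with fragments scaled to the total of each library, at 7.10, 6.04, 4.23 and 6.63 in the same order. Shares regained moved when taken on scaled counts, a scale chosen after the data were seen, to 139%, 72%, 16.6%, 7.34% and 6.34% in the daf-12 triple mutant, the daf-16 triple mutant, the dpy-21 triple mutant, the set-4(dp268) triple mutant and the set-4(n4600) triple mutant. Leaving out single libraries was also added after the data were seen.

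Calls among the 6 tested list loci were less stable. In the daf-12 triple mutant the count was 0, and 1 in the larger principal component group. In the daf-16 triple mutant it was 1, against 4 in that group, 2 by edgeR, 2 by DESeq2, 0 with a pseudocount of 0.5, 0 with no filter, 0 with a filter of 10 scaled counts and 0 to 1 with 1 replicate number left out. In the dpy-21 triple mutant it was 1, against 4 in that group, 2 with a pseudocount of 5, 0 with no filter, 0 with a filter of 10 and 0 to 2 with 1 replicate number left out. EdgeR and DESeq2 also called 1 there, but a different locus, ins-7 in place of the set-1 locus that limma called. In wild type it was 1, against 4 in that group, 0 with no filter, 0 with a filter of 10 and 0 to 1 with 1 replicate number left out. EdgeR and DESeq2 each called 1 in wild type as well. This was the set-1 locus by limma and edgeR, but daf-28 by DESeq2. Under the filter of 10 scaled counts the loci of ins-7 and set-1 were not tested. The counts of 0 there cover only mtl-1, mtl-2, daf-28 and ins-35, and are not lost calls. The cause of these shifts was not tested. Neighbouring loci were called in 0 of 84 alternatives. Over all tested loci edgeR on the recovered fragments called 104 in the daf-12 triple mutant, 113 in the daf-16 triple mutant, 110 in the dpy-21 triple mutant, 4 and 1 in the dp268 and n4600 set-4 mutants and 138 in wild type. Median-of-ratios rescaling brought the median log2 difference of all tested loci to 0.06 in the daf-12 triple mutant, 0.02 in the dpy-21 triple mutant and -0.07 in wild type, against -0.08, -0.20 and -0.19 as deposited.

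Replicate numbers did not clearly pair the libraries. Deviations of 105 same-numbered pairs correlated between -0.61 and 0.77, with 45 over 0.1, and 11 of 35 libraries matched their own number best. The median correlation was 0.03 for same-numbered pairs and 0.02 for pairs with other numbers. The same-numbered pairs mentioned above are therefore a description only. A replicate block left the wild type difference at 5.42 and changed no count by more than 1.5-fold. Counts as deposited limit the set-4 and eak-7;akt-1 values, at most 30 fragments in a library.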
